A study of Drosophila melanogaster with 9 samples.

Results

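The structural cuticle proteins of Drosophila melanogaster were examined in embryos with raised and with reduced Jun N-terminal kinase (JNK) signalling. The group was taken by name: every gene whose annotated symbol starts with Cpr and a digit, Lcp, Ccp84 or Twdl, or is Edg78E, Edg84A, Pcp or Acp1. Of 10844 genes measured, 91 met this rule: 58 Cpr, 20 Tweedle, 5 Lcp and 4 Ccp84A genes and the 4 genes with names of their own. RefSeq lists 124 genes with such symbols, and the other 33 were not analysed here as single genes. Each gene was represented by 1 probe set, that with the highest mean, out of 97 that name a member alone.

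GOF embryos had the genotype w;UAS-hepACT/+;69B/+, in which the driver 69B-GAL4 expresses an activated form of the JNK kinase Hep in the ectoderm. LOF embryos were y w heprev75/y w hep1, a combination of a pair of hep alleles, and so carried y as well as w. WT embryos, to which both were compared, had the genotype w, which all 3 groups share. Each group had 3 arrays from independent RNA samples. RNA came from whole dechorionated embryos at stages 13 to 14, raised at 25 °C for about 9 h, in collections kept where over 85% of embryos were at these stages. Tissues were therefore pooled in every sample, and fewer cells of a type cannot be told apart from less RNA per cell.

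The insect cuticle is a layered coat of chitin fibres and proteins that the epidermis, trachea, foregut and hindgut secrete on their apical side. Cpr, Lcp, Ccp84A and Edg proteins, Pcp and Acp1 belong mostly to the CPR family, which shares the Rebers and Riddiford domain that binds chitin, whereas Tweedle proteins form a separate family, first known from TwdlD mutations that make larvae and pupae squat. In the embryo the first larval cuticle is laid down after dorsal closure, so many of these genes are known to be transcribed mainly after the stages sampled here. Edg78E, Edg84A, Pcp and Acp1 were first described in pupal or adult cuticle.

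hep did not separate the groups (3403, 3625 and 3099 in GOF, 3315, 3515 and 3653 in LOF, and 3567, 2878 and 4044 in WT), and where its probes lie relative to transgene and lesions is unknown, so it does not check the labels. The JNK target puc read 6435, 5278 and 6712 in GOF, 1739, 1813 and 1704 in LOF, and 2550, 2016 and 2347 in WT, highest on all GOF arrays and lowest on all LOF arrays. Values are the deposited linear intensities, 1 per probe set and array. Array medians lay between 688 and 709, and arrays correlated at 0.962 to 0.97 between GOF and WT, at 0.989 to 0.994 between LOF and WT, and at 0.992 or higher within groups. A change is the difference of group means of log2(value + 1), with its standard error (SE). A gene was called changed at a Benjamini-Hochberg adjusted p under 0.05 in limma over all 10844 genes. By this test puc was called in GOF against WT (log2 change 1.41, adjusted p = 2.5e-06). In LOF against WT puc missed the threshold (log2 change -0.39, adjusted p = 0.0832). The authors' values were made linear from log values with a base that is not stated, and reach 1331513, above the 65535 of a 16-bit scanner. If base e was used, which that range favours, each log2 change shrinks by the factor 0.693.

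The brightness of each cuticle protein gene was set against genes that serve adult tissues. As such a background, 100 genes were taken: 80 odorant and gustatory receptor genes and 20 of chorion proteins, accessory gland peptides and a rhodopsin. A gene counted as above background in a group if it exceeded their 95th percentile on all 3 arrays. That percentile lay at 2027 to 2088 in GOF, 2247 to 2355 in LOF and 1881 to 2075 in WT. In GOF 17 of the 91 genes passed it (18.7%, against 26.5% of all genes), in LOF 18 (19.8%, against 24.2% of all genes) and in WT 18 (19.8%, against 27.2% of all genes). Altogether 18 passed in some group and 17 in all 3. Brightness depends on the probes as well as on the RNA, so it does not rank genes: TwdlJ, for example, averaged 17058 on its brighter and 120.8 on its dimmer probe set, 141-fold apart.

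The 17 genes above background in all 3 groups comprised 7 Tweedle genes of arm 3R, namely TwdlM, TwdlJ, TwdlN, TwdlG, TwdlF, TwdlD and TwdlC. With them were Cpr64Aa, Cpr64Ac, Cpr64Ad, Cpr72Ea and Cpr73D, the 3 Ccp84A genes Ccp84Ac, Ccp84Ad and Ccp84Ae, the larval cuticle gene Lcp65Aa, and Acp1. For TwdlM, TwdlJ, TwdlN and Cpr73D this rests on the brighter of 2 probe sets. Their dimmer sets averaged 325.3, 120.8, 476.8 and 563.8 in that order, and lay below the threshold on every array. Cpr47Eg passed in LOF and WT but on 2 of 3 arrays in GOF. Cpr64Aa read 13711, 14208 and 13806 in GOF, 13820, 12967 and 14317 in LOF, and 12977, 13696 and 12328 in WT, so its values were nearly the same on all arrays. Ccp84Ad read 13542, 12360 and 11800 in GOF, 12521, 14174 and 12839 in LOF, and 10657, 9864 and 12388 in WT. Its LOF arrays all lay above its WT arrays, while GOF and WT overlapped.

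Lcp65Aa read 3695, 3692 and 3688 in GOF, 3787, 3836 and 3559 in LOF, and 3295, 3939 and 3310 in WT. Acp1, the adult cuticle protein gene, read 3376, 2902 and 3006 in GOF, 3564, 3661 and 3123 in LOF, and 2843, 3042 and 2868 in WT. Both thus overlapped between GOF and WT. In WT, Ccp84Ac (1882, 2362 and 2449) and Cpr47Eg (1902, 2417 and 5162) lay just inside the threshold, and Cpr64Ab (1800, 2462 and 2112) and Ccp84Ag (1755, 1965 and 2160) just outside it. For a bright and steady value such as that of Cpr64Aa, transcript and binding of other RNA cannot be told apart here.

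The remaining members did not pass in any group. The median member read 593 to 657 in GOF, 703 to 769 in LOF and 645 to 742 in WT, between the median of the adult genes (120.5 to 132 over all arrays) and that of all genes (784 to 801). The pupal genes were not above background: Edg78E read 56 to 72 over all 9 arrays, Pcp 266 to 372 and Edg84A 840 to 1110. The lowest value of any member was 39, on a LOF array.

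**Figure D1:**
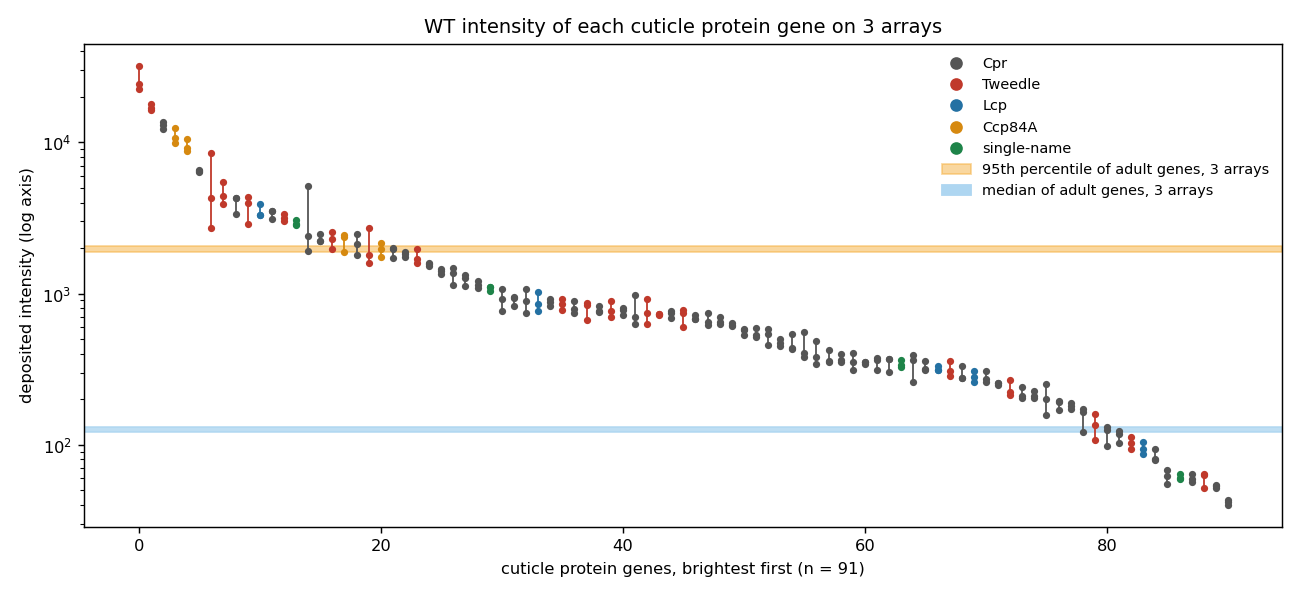
Deposited intensity (log axis) of each of the 91 cuticle protein genes on the 3 WT arrays, ordered by brightness and coloured by family, with points for arrays and lines from lowest to highest. The orange band marks the 95th percentile of 100 adult genes on the 3 arrays (1881 to 2075) and the blue band their median (120.5 to 131.5). On all 3 arrays 18 genes exceed the 95th percentile of the same array.

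Few cuticle protein genes passed the test in embryos with activated Hep. In GOF against WT, 5 of 91 members (5.49%) were called changed, 4 lower and 1 higher, where 36.7% of all genes were called (20.1% lower and 16.6% higher). The 4 that fell were TwdlF, TwdlD, Ccp84Ag and Cpr11A, and Cpr30B rose. Their changes were small, and 0 members reached a log2 change of 1, which 8.26% of all genes did. The median change of the members was -0.03, and that of all genes also -0.03. With cyclic loess normalization the split turned to 4 higher and 1 lower (all genes 2074 higher and 1750 lower), since Ccp84Ad, Cpr47Eb and TwdlC passed in place of TwdlF, TwdlD and Ccp84Ag, and the median of the members was 0.02.

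TwdlF read 2071, 2231 and 2517 in GOF, against 2902, 4367 and 3982 in WT. All 3 GOF arrays lay below all WT arrays. The means were 2273 ± 226 in GOF and 3750 ± 759 in WT (SD, n = 3 each). The log2 change was -0.71, with SE 0.21 and an adjusted p of 0.0209, a difference of mean log2 values that amounts to 1.63-fold, or 1.4-fold with base e. TwdlD, the gene of the squat mutants, read 2522, 2576 and 2642 in GOF, against 3037, 3382 and 3182 in WT. The GOF arrays were close together and below WT (log2 change -0.31, SE 0.10, adjusted p = 0.0272).

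Ccp84Ag, of the Ccp84A cluster, read 1628, 1399 and 1397 in GOF, against 1755, 1965 and 2160 in WT, again without overlap (log2 change -0.41, SE 0.13, adjusted p = 0.0221). Cpr11A, a dim Cpr gene of the X chromosome, read 223, 256 and 268 in GOF, against 313, 356 and 319 in WT (log2 change -0.40, SE 0.11, adjusted p = 0.014). The group means of Cpr11A, 249 ± 23.3 in GOF and 329 ± 23.3 in WT, both lay below background. Cpr30B, on arm 2L, read 488, 415 and 419 in GOF, against 371, 367 and 304 in WT (log2 change 0.34, SE 0.11, adjusted p = 0.023). It lay below background as well, at 441 ± 41 in GOF and 347 ± 37.6 in WT.

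TwdlM, the brightest member, read 20209, 16351 and 19476 in GOF, against 24160, 22649 and 32041 in WT. The GOF and WT arrays did not overlap, but the difference missed the threshold (log2 change -0.48, SE 0.20, adjusted p = 0.0835). It passed with only the GOF and WT arrays (adjusted p = 0.0333), with quantile normalization (0.0463), and without LOF replicate 1 (0.0301) or 2 (0.0486). TwdlN read 2924, 2473 and 3559 in GOF, against 4303, 2722 and 8466 in WT, where 1 WT array lay within the GOF range (log2 change -0.65, SE 0.32, adjusted p = 0.148). Of the 20 Tweedle genes, 16 had a negative and 4 a positive difference, with a median of -0.11; with cyclic loess 7 were positive and the median was -0.04. GOF and WT did not overlap for 19 members (44.5% of all genes), 15 lower (24.9% of all genes were lower in this way) and 4 higher (19.6% of all genes).

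The 5 calls changed with single arrays. Without WT replicate 3 only that of Cpr11A passed (adjusted p = 0.0292), while TwdlF had an adjusted p of 0.0691, TwdlD of 0.0622, Ccp84Ag of 0.0903 and Cpr30B of 0.1. Their log2 changes were then -0.65 for TwdlF, -0.31 for TwdlD, -0.34 for Ccp84Ag and 0.25 for Cpr30B. Leaving out GOF replicate 2 kept Cpr11A and Cpr30B, leaving out GOF replicate 1 kept Ccp84Ag, and leaving out WT replicate 2 kept Cpr30B. The 95% interval of the change lay within -1 and 1 for 88 of 91 members (96.7%, against 83.5% of all genes), and within -0.5 and 0.5 for 77 (84.6%, against 54.7% of all genes). Among the 18 members above background in some group these were 15 (83.3%, against 83.5% of all genes) and 13 (72.2%, against 54.7%). These 18 were selected for brightness, whereas only 24.2 to 27.2% of all genes were above background in a group. The shares therefore do not compare like genes.

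**Figure D2:**
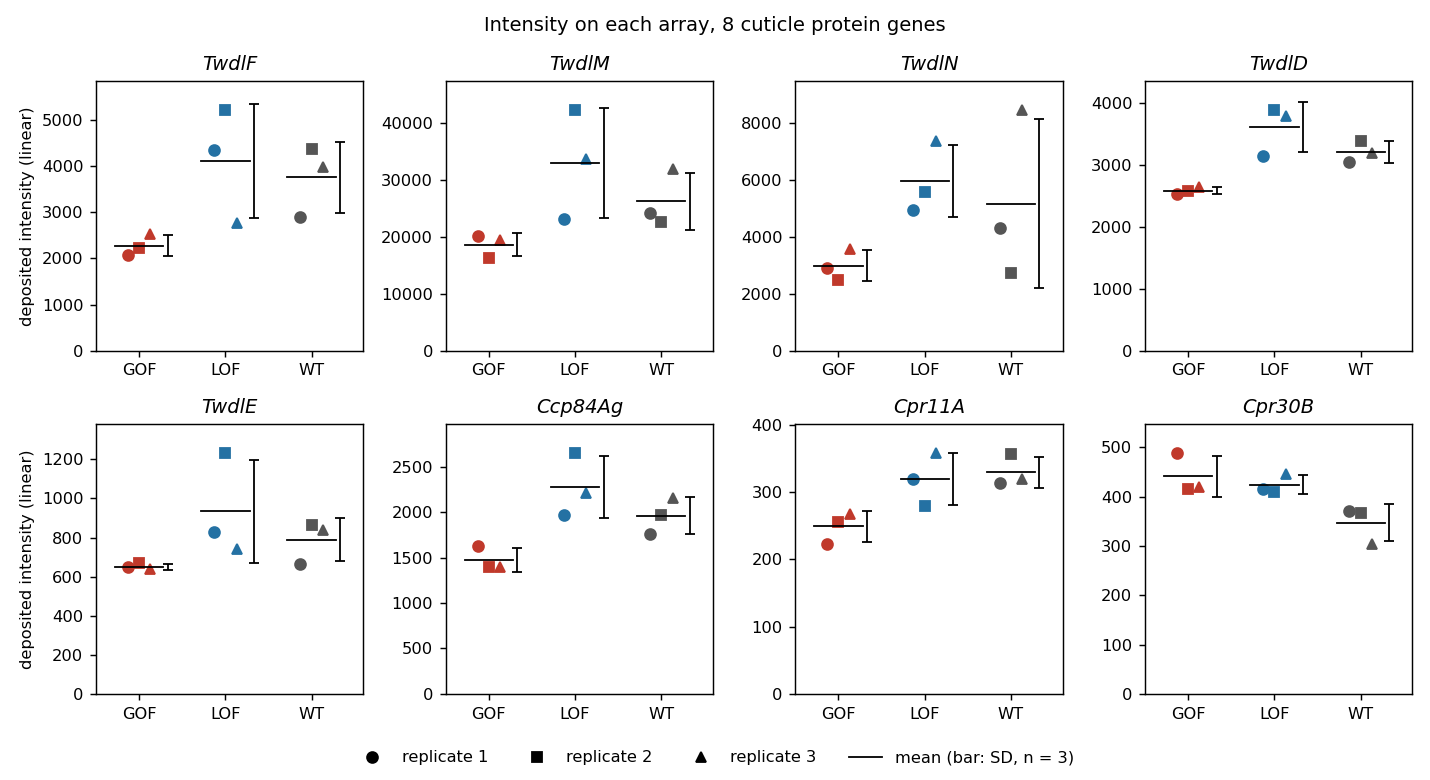
Deposited intensity (linear axis from 0) of TwdlF, TwdlM, TwdlN, TwdlD, TwdlE, Ccp84Ag, Cpr11A and Cpr30B on each array of GOF, LOF and WT, with the mean and SD of 3 arrays. TwdlF, TwdlM, TwdlD, Ccp84Ag and Cpr11A lie lower on all 3 GOF arrays than on all WT arrays, and TwdlN does so against LOF but not against WT.

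No cuticle protein gene passed the test in embryos with reduced hep function. In LOF against WT, 0 of 91 members were called in limma, where 4.72% of all genes were (1.36% higher and 3.37% lower), and 8 members (8.79%) had an unadjusted p under 0.05, where 19.8% of all genes had. The closest was Cpr47Eb, a dim gene of the Cpr47E cluster, at 485, 427 and 486 in LOF, against 312, 361 and 372 in WT. Its arrays did not overlap (log2 change 0.42, adjusted p = 0.0705), and it passed when only the LOF and WT arrays were fitted and without GOF replicate 3.

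TwdlC read 2601, 3249 and 2940 in LOF, against 1960, 2290 and 2564 in WT (log2 change 0.37, SE 0.12, adjusted p = 0.0978), with LOF higher on every array. TwdlF, lower in GOF, was close to WT in LOF at 4347, 5211 and 2760 (log2 change 0.10, 95% interval -0.36 to 0.57). TwdlD, at 3146, 3882 and 3786 in LOF, differed from WT by 0.17 (interval -0.05 to 0.38), and Ccp84Ag, at 1973, 2650 and 2213, by 0.21 (interval -0.06 to 0.49). The intervals of all 3 genes hold 0.

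The differences between LOF and WT leaned to the higher side without single calls. Of the 91 members, 77 had a positive difference, with a median of 0.10, where 6001 of 10844 genes did, with a median of 0.02. With cyclic loess 68 members were positive (median 0.086, all genes 0.006), and with quantile normalization 71 (median 0.106, all genes 0.02). All 20 Tweedle genes had a positive difference (median 0.11), or 19 of 20 with cyclic loess or quantile normalization. LOF and WT did not overlap for 15 members, against 25.6% of all genes. The LOF arrays lay above all WT arrays for these 15 (16.5%, against 13.1% of all genes) and below them for 0 (12.5% of all genes). The lean moved with single arrays: WT replicate 1 was the highest of its group for 9 members (9.89%, against 35.3% of all genes), and LOF replicate 2 for 58 (63.7%, against 32.4%). Without WT replicate 1, 61 members and 13 Tweedle genes were positive (median 0.06), and without LOF replicate 2, 68 members and 15 Tweedle genes (median 0.07). Other arrays pulled the opposite way. WT replicate 2 was highest for 52 members (57.1%, against 37.1% of all genes), and LOF replicate 1 for 11 (12.1%, against 36.6%). Without WT replicate 2, 78 members and 17 Tweedle genes were positive (median 0.12). Without LOF replicate 1, 80 members and 20 Tweedle genes were (median 0.12). The part of these arrays in the lean was not tested further.

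Of the 3 comparisons, that between the 2 JNK genotypes had the most calls among cuticle protein genes. In GOF against LOF, 10 of 91 members (11%) were called, all lower in GOF, where 37.1% of all genes were called and 19.4% were lower. They were TwdlM, TwdlN, TwdlF, TwdlD and TwdlE of the Tweedle family, Ccp84Ag, and the Cpr genes Cpr11A, Cpr35B, Cpr51A and Cpr78Ca. With cyclic loess 6 members passed, all lower in GOF, while the calls of all genes were 2158 higher and 1509 lower, in place of 1922 and 2102. This comparison shares its GOF arrays with the first and its LOF arrays with the second, so it is no independent support for either. GOF and LOF did not overlap for 30 members (49.5% of all genes), all lower in GOF (33%, against 29.6% of all genes), and for 0 higher (19.9% of all genes). 0 members reached a log2 change of 1, which 9.8% of all genes did.

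TwdlM read 20209, 16351 and 19476 in GOF, against 23132, 42372 and 33712 in LOF. The means were 18679 ± 2050 in GOF and 33072 ± 9640 in LOF (SD, n = 3 each). On the log2 scale the difference was -0.79, with SE 0.20 and an adjusted p of 0.00817. TwdlN read 2924, 2473 and 3559 in GOF, against 4949, 5596 and 7380 in LOF (log2 change -0.996, SE 0.32, adjusted p = 0.0291), the largest change of any member in the 3 comparisons. Both genes were lower on every GOF array, and their log2 differences amount to 1.73-fold for TwdlM and 1.99-fold for TwdlN, or 1.46-fold and 1.61-fold with base e.

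TwdlF had a log2 change of -0.81 (SE 0.21, adjusted p = 0.0101), Ccp84Ag of -0.62 (SE 0.13, adjusted p = 0.00191) and TwdlD of -0.48 (SE 0.10, adjusted p = 0.00231). TwdlE, a Tweedle gene on arm 2L, read 647, 668 and 637 in GOF, against 830, 1232 and 740 in LOF (log2 change -0.49, adjusted p = 0.0402). The 4 Cpr genes differed by -0.26 to -0.38. Neither these 4 genes nor TwdlE and Ccp84Ag were above background in any group. Cpr35B read 116, 105 and 100 in GOF, against 149, 145 and 126 in LOF, near the median of the adult genes. The calls of TwdlM, TwdlF, TwdlD and Ccp84Ag held in all 18 alternatives, whereas that of Cpr78Ca ended in 11, of TwdlE in 9, of TwdlN and Cpr11A in 5 each, of Cpr35B in 4 and of Cpr51A in 3. With LOF replicate 2 or GOF replicate 2 left out, 5 members passed instead of 10, where 31.8% and 31.7% of all genes did.

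**Figure D3:**
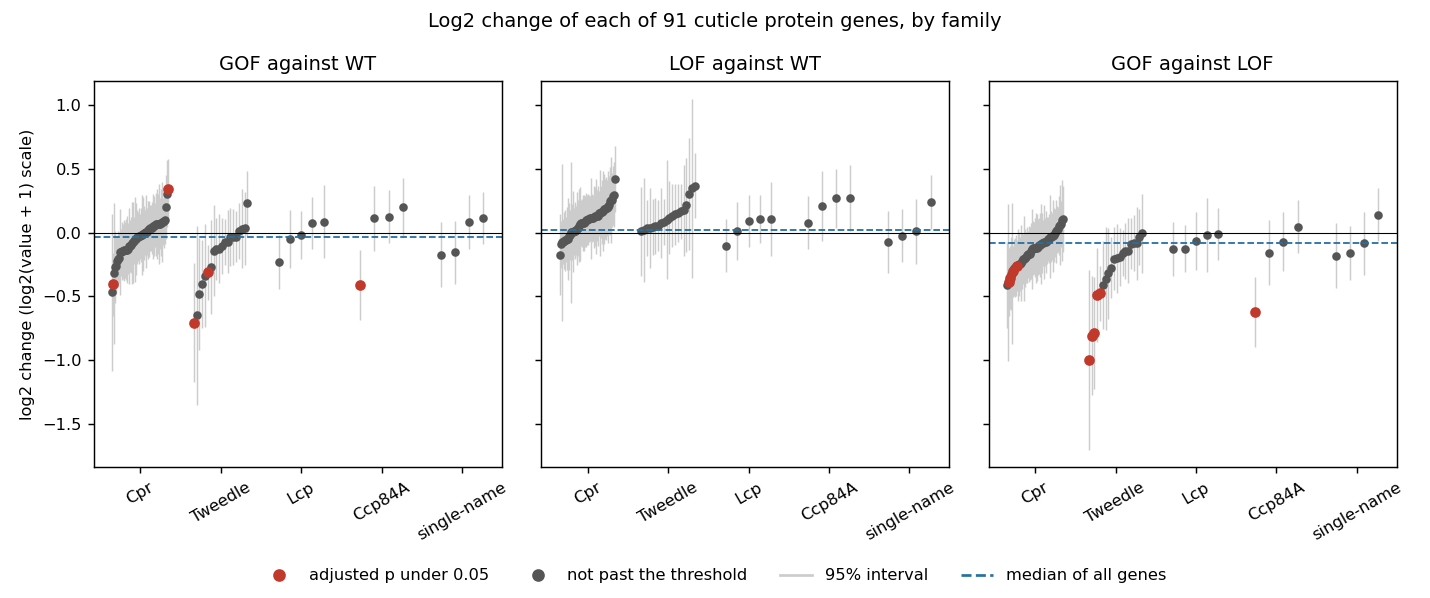
Log2 change (log2(value + 1) scale) of each of the 91 genes by family for the 3 comparisons (GOF to WT, LOF to WT, GOF to LOF, left to right), with 95% intervals. Red points passed the threshold (5, 0 and 10 genes), and the dashed line is the median of all 10844 genes (-0.03, 0.02 and -0.08).

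A few cuticle protein genes varied widely among the WT arrays. TwdlN and Cpr47Eg ranged over more than 1 on the log2 scale among the WT arrays, as 2 of 91 members (2.2%) did, where 0.775% of all genes did. Both were highest on WT replicate 3: 8466 against 4303 and 2722 for TwdlN, and 5162 against 1902 and 2417 for Cpr47Eg. In the other groups Cpr47Eg read 2069, 1864 and 2329 in GOF and 2621, 2465 and 3143 in LOF. Without WT replicate 3 the GOF against WT change of TwdlN was -0.21 in place of -0.65, and that of Cpr47Eg -0.05 in place of -0.47. In the other direction, TwdlN was called without WT replicate 2 (-1.03, adjusted p = 0.0128), and Cpr47Eg without WT replicate 1 (-0.77, adjusted p = 0.0469).

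The dimmer probe sets of TwdlN and TwdlM were high on some of the same arrays. The second TwdlN set read 259, 272 and 445 in GOF, 557, 664 and 791 in LOF, and 397, 243 and 663 in WT, and was called in GOF against LOF (log2 change -1.07, adjusted p = 0.0216, adjusted over all probe sets). The second TwdlM set read 209, 198 and 234 in GOF, 235, 524 and 500 in LOF, and 257, 204 and 567 in WT. It was high on LOF replicates 2 and 3 and on WT replicate 3 alone, as was the brighter set (GOF against LOF -0.89, adjusted p over probe sets = 0.0844). The main sets of TwdlM, TwdlN, TwdlJ and Ccp84Ad are of the types marked i, f or r by Affymetrix, with an incomplete or relaxed choice of probes or probes shared in a family, so related transcripts may add to them.

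A further 7 probe sets match several genes, at least 1 of them a cuticle protein gene, and were kept out of the 91. That shared by Lcp65Ag1, Lcp65Ag2 and Lcp65Ag3 read 1050, 416 and 1480 in GOF, 3710, 3912 and 4227 in LOF, and 1819, 1083 and 11749 in WT. GOF was lower than LOF (difference -2.19, SE 0.72), at an adjusted p of 0.0357 over probe sets. GOF against WT missed the threshold (-1.72, adjusted p = 0.0955), and WT replicate 3 stood far above the other WT arrays. Another set, which matches Lcp65Ag1 and Lcp65Ag2, read 44 to 58 on all arrays, so the signal cannot be assigned to 1 gene. The set shared by TwdlL and TwdlB read 374, 351 and 364 in GOF, 336, 809 and 865 in LOF, and 511, 367 and 1290 in WT. It was high on the same LOF and WT arrays as TwdlM.

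**Figure D4:**
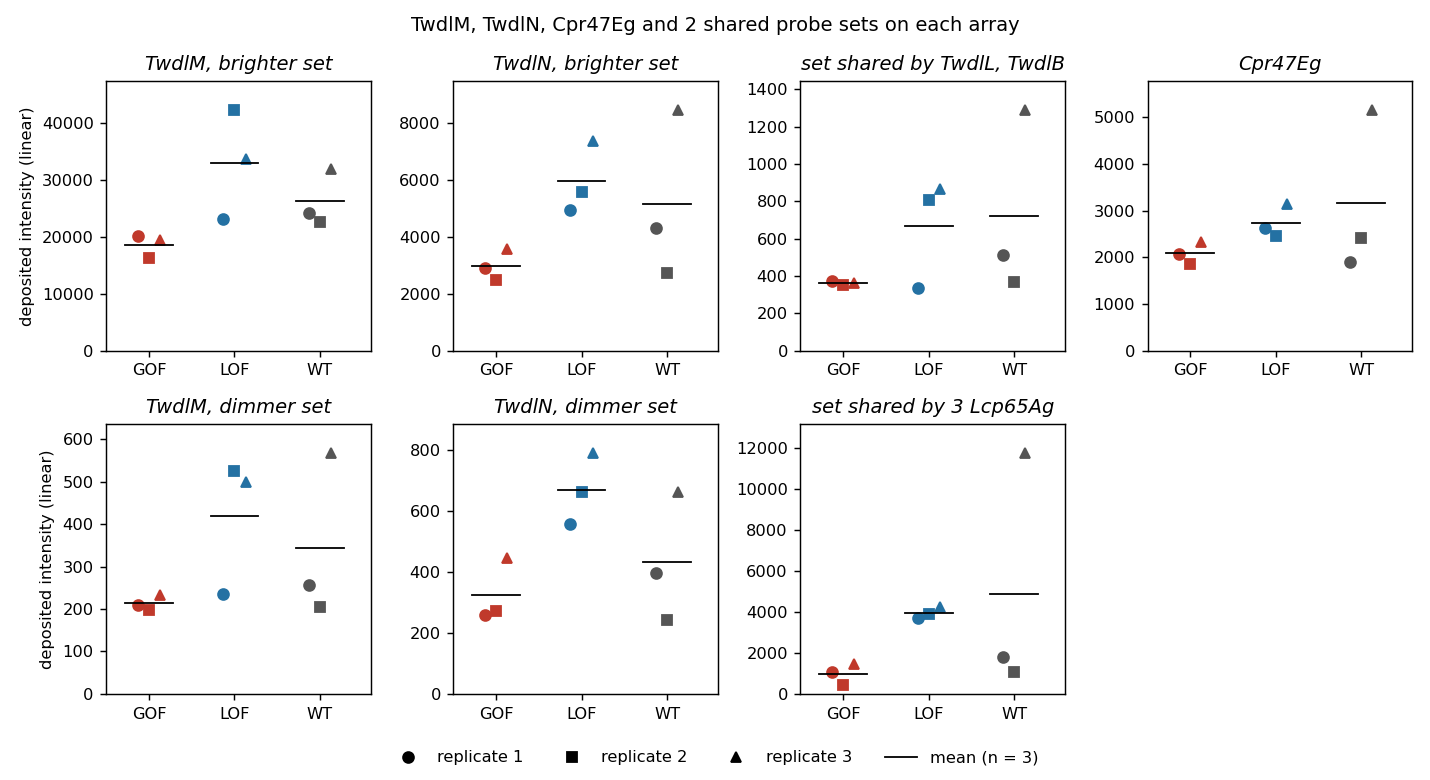
Deposited intensity (linear axes from 0) on each array of the brighter and dimmer probe sets of TwdlM and TwdlN, of Cpr47Eg, and of the sets shared by TwdlL with TwdlB and by 3 Lcp65Ag genes, with the mean of 3 arrays. WT replicate 3 is the highest WT array in all 7 panels.

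Other epidermal genes varied among the same WT arrays in both directions. Osi6 and Osi7, genes of the Osiris family active in the epidermis and trachea while cuticle forms, were lowest on WT replicate 3 (25712 against 55020 and 72913, and 3273 against 9920 and 9485), the array on which TwdlN and Cpr47Eg were highest. ImpE2, an ecdysone-inducible gene, read 31418 on WT replicate 3, against 55376 and 44389. Blimp-1, a transcription factor gene of the ecdysone response, was instead highest there (19538 against 12718 and 10162), and vvl, a POU factor gene of trachea and epidermis, also (7170 against 2961 and 2725). The part of collection differences in the WT spread of TwdlN and Cpr47Eg was not tested.

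Members were also set out by their neighbours on a chromosome, a cluster having at most 3 other genes between members. Their counts stand beside 36.7% of all genes called in GOF against WT, 37.1% in GOF against LOF, and 24.2 to 27.2% above background in a group. Of the 13 annotated Tweedle genes that lie together on arm 3R from TwdlM to TwdlQ, 11 were measured, 4 were above background in some group, and TwdlD alone was called in GOF against WT, with TwdlD, TwdlM and TwdlN called in GOF against LOF. In the Edg84A and Ccp84A cluster, 5 of 8 were measured, 3 were above background and Ccp84Ag was called in both. All 7 genes of the Cpr47E cluster were measured and 0 were called in any comparison in limma, with 1 at an unadjusted p under 0.05 in GOF and 1 in LOF, each against WT, and 0 between GOF and LOF. All 4 genes of the Cpr64A cluster were measured, 3 were above background and 0 were called, with 1 at an unadjusted p under 0.05, in GOF against LOF.

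Other genes of cuticle formation were called in both directions in GOF, where 36.7% of all genes were called (20.1% lower and 16.6% higher), and in LOF 4.72%. Of 28 measured genes of chitin synthesis, chitin modification and the apical matrix, 13 fell and 3 rose in GOF against WT, with a median of -0.31. The chitin deacetylase gene verm averaged 54532 ± 3190 in GOF and 127331 ± 4850 in WT (SD, n = 3 each), a log2 change of -1.22 (adjusted p = 4.35e-06), and the chitin-binding protein gene obst-A -1.43. The zona pellucida gene mey fell by 1.44, while Idgf4, a gene of the chitinase-like growth factors, rose (58427 ± 1770 in GOF, 25100 ± 1990 in WT, log2 change 1.22). In LOF 0 of 28 were called in limma (5 at an unadjusted p under 0.05). Of 10 hardening and pigment genes, 3 fell and 1 rose in GOF, a share near that of all genes, with the oxidase gene Duox at -0.80, and speck alone fell in LOF (-0.58).

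Of 22 regulators, chiefly nuclear receptors and epidermal transcription factors, 15 fell and 2 rose in GOF, with a median of -0.82. Over all genes, 20.1% were called lower and 16.6% higher in GOF, and 3.37% lower and 1.36% higher in LOF. The nuclear receptor genes Hr78 (-1.19) and Hr3 (-1.24) and the Sox gene D (-1.44) fell. In contrast ftz-f1, a nuclear receptor gene that also has a maternal transcript, rose to 1308 ± 599 in GOF, against 65 ± 6.24 in WT (log2 change 4.20, adjusted p = 4.82e-07). In LOF, D alone was called (-0.64). Of 6 ecdysone synthesis genes 1 fell in GOF, and in LOF 0 were called (1 at an unadjusted p under 0.05). Of 23 genes of the Osiris and Imp families, 7 fell in GOF and 0 rose, with ImpE2 at -3.38, and 0 were called in LOF (3 at an unadjusted p under 0.05).

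RNAs laid down in the egg were higher on the GOF arrays. Of 17 maternal and early genes measured, 11 rose and 0 fell in GOF, and 6 were not called. Among those that rose, smg changed by 4.36, twe by 4.64 and swa by 4.23. Over all genes, 16.6% were called higher and 20.1% lower in GOF. The summed intensity of the list was 136858 to 189200 in GOF, 48979 to 54632 in LOF and 40562 to 50697 in WT. CycB3 alone gave 83941 to 110603 of it in GOF, 33517 to 37378 in LOF and 25358 to 36177 in WT, and the other 16 genes 52917 to 78597 in GOF, 15462 to 17254 in LOF and 13243 to 16380 in WT. In LOF 6 of the 17 genes rose, where 1.36% of all genes were called higher and 3.37% lower. Markers of differentiated tissues fell in GOF in 6 of 7 cases for epidermis, 4 of 5 for trachea, 3 of 4 for foregut and hindgut, 4 of 4 for salivary gland and 4 of 5 for amnioserosa. The same held for 6 of 7 hemocyte, 2 of 2 muscle, 3 of 4 nervous system and 2 of 3 fat body markers. There were 0 rises in any of these lists. The lists overlap with those above. The trachea markers verm, serp and Gasp are also chitin and matrix genes, and the epidermal markers grh and ovo are also regulators. In LOF, 2 epidermal, 1 salivary gland and 1 amnioserosa marker fell and 2 hemocyte markers rose. The summed epidermal markers read 27363 to 29728 in GOF, 51672 to 59023 in LOF and 51810 to 53532 in WT. Most of this sum came from Nrg (mean 13128 in GOF and 22053 in WT) and cora (mean 9049 and 19672). The epidermal marker not called in GOF was shg (log2 change -0.31, adjusted p = 0.124 in limma). The part of the epidermal markers in the lower Tweedle and Ccp84Ag values of GOF was not tested.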

How the data were processed

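Whole-embryo RNA was hybridised to 9 Affymetrix 1-colour arrays (3 GOF, 3 LOF, 3 WT). The deposited intensity values, whole numbers from 29 to 1331513, were made by the authors with RMA, per the submitters' processing notes, and are linear. The sources used here do not give its version. Platform annotation and the RefSeq gene table (Release 6 plus ISO1 MT) gave 12443 probe sets with 1 gene, 327 with several, 1196 unnamed and 44 controls. The set with the highest mean log2 value stood for a gene. On log2(value + 1), limma 3.58.1 (R 4.3.3) estimated group means from all 9 arrays, two-sided, with Benjamini-Hochberg adjustment, and was tested on simulated data. Few arrays limit the precision.

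The members, lists and alternatives were chosen with earlier results of these data known. Named members were those called, above background, of widest spread or nearest the background threshold; the pupal genes, Cpr47Eb and shared sets were chosen after their values were seen, as were Osi6, Osi7, Blimp-1 and vvl. Other lists gave up to 4 called genes each. Cp110, Cp190 and Acp65Aa matched the background symbols but are not of those adult families and were left out. Alternatives covered pseudocount, filter, normalization, arrays fitted, variance prior, replicate block, probe choice and background genes.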

Additional observations from a re-analysis of the deposited data

How the results depend on the processing

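Each comparison was repeated under 18 alternatives. Called members in GOF against WT were 5 as reported. They numbered 3 when the dimmest 40% of genes were dropped (53 members tested), where 50.6% of the genes kept were called. They numbered 1 to 6 when single arrays were left out (31.7 to 36.1% of all genes), with the low value without WT replicate 3. With the replicate block they numbered 7 (36.8% of all genes). In LOF against WT, 0 as reported, 1 was called with only the arrays of both groups (5.87% of all genes). Without single arrays 0 to 1 were called there (1.27 to 6.61% of all genes). In GOF against LOF, 10 as reported, 6 were called with cyclic loess (33.8% of all genes) and 9 with the replicate block (36.8%). Without single arrays 5 to 11 were called there (31.7 to 38% of all genes). Same-numbered arrays did not deviate together (correlations from -0.18 to 0.187), so the numbers were not taken as pairs. Members above background, 17 in GOF, 18 in LOF and 18 in WT as reported, were 9, 10 and 9 in these groups at the 99th percentile, and 25, 27 and 26 at the 90th percentile. With Cp110, Cp190 and Acp65Aa among the background genes, a setting added after seeing the data, they were 17, 17 and 15. The shares of all genes under these other background settings are not given here. Over 26 named members in 3 comparisons, 56 repeats lost a call, 15 gained one and 1321 kept their side of the threshold, and 0 called changes turned sign. The causes were not tested. Most members lay under the 95th percentile of the adult genes, so for them a dim transcript was not told from background.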
